A study of Mus musculus with 15 samples.

Results

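The sites described here are 302 RevErb binding sites in mouse macrophages that lie in the genic enhancer class and more than 30 kb from the start of the gene they were assigned to. They were chosen from the authors' summary table of 1544 peaks common to RevErbalpha and RevErbbeta, by the authors' class and by the authors' distance to a gene start. Apart from the calling of these common peaks, which rests on binding, no measured binding or transcription value entered the choice. They make up 302 of the 687 genic enhancer peaks, and the other 385 lie within 30 kb. All 302 also stand in the authors' list of enhancer-like peaks, and 0 stand in their intergenic list. They were assigned to 267 of the 1220 gene IDs in the table (21.9%).

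RevErbalpha and RevErbbeta are nuclear receptors that bind DNA at a short AGGTCA motif with an A/T-rich flank and recruit corepressor complexes with histone deacetylases. They repress genes of the circadian clock, among them Arntl, the gene of the clock activator BMAL1, and in macrophages they also bind distal enhancers. Active enhancers are transcribed into short capped RNAs, called enhancer RNAs, and repressors at enhancers are known to lower that transcription. An enhancer inside or beside a gene is harder to read by nascent RNA, because RNA polymerase that transcribes the host gene passes through it as well.

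Binding was measured by ChIP-seq in RAW cells, a macrophage line of the mouse labelled C57Bl6, carrying biotin-tagged RevErbalpha, biotin-tagged RevErbbeta, or BirA, the biotin ligase, as background. Capped nascent 5' ends were measured by 5'GRO-seq in RAW control cells and in those with biotin-tagged RevErbalpha. Nascent RNA along genes and sites was measured by GRO-seq in bone marrow derived macrophages grown in L-cell medium or M-CSF. The WT cells carried flox/flox alleles of RevErbalpha and RevErbbeta, and those labelled DKO carried the same alleles and Tie2-Cre, which is active in endothelial and blood-forming cells. The BirA column is named as an input, and whether it is a pull-down or an input is not given in the sources used here. Each of the 7 groups used here is 1 sample, so differences between conditions have no replicate check and no p-value is given. Each RevErb has 3 ChIP-seq runs and each genotype has 2 runs at gene level, all read as repeats of 1 sample. Treated libraries are also listed in the file headers, and from the columns it cannot be seen if a run was a treated one. In these bulk libraries fewer cells of a type and less RNA per cell cannot be told apart.

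Depth ranged from 598490 to 5276592 tags for the RevErb runs and was 10548880 for BirA. The 5'GRO-seq libraries held 18708148 tags in control cells and 7238710 in tagged cells, and the gene-level GRO-seq runs held 34852907 to 46649008. Macrophage identity could be read only from markers with a common peak: Csf1r, the receptor of M-CSF, was between 12.33 and 12.71 on the log2 scale in all 4 gene-level runs, and Cd14, a coreceptor for bacterial lipopolysaccharide, was between 9.05 and 9.27. No listed marker of lymphocytes, fibroblasts, neutrophils or endothelium has a common peak, so those cells could not be read. The gene value of Nr1d1, which encodes RevErbalpha, was 7.91 and 7.48 in WT and 9.44 and 9.56 in the runs labelled DKO. A value over the whole gene is no check of a floxed deletion, because the deleted part was not measured apart, and directions are given below for the library labelled DKO.

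The sites were spread over 19 chromosomes and lay 30067 to 644923 bp from the assigned start, with a median of 62038 bp. Of the 302, 116 lay 30 to 50 kb away, 113 lay 50 to 100 kb away and 73 lay farther than 100 kb. The farthest was at 644923 bp in Pde4d, a cAMP phosphodiesterase, followed by sites of Ctnnd2 (438219 bp) and Dlgap2 (372297 bp). The distance limit cut through a continuous range. Just inside it were a site of Pcdhgc5, a clustered protocadherin, at 30067 bp, one of Rapgef6, an exchange factor for Rap GTPases, at 30106 bp upstream, and one of Cc2d2a at 30294 bp. Just outside were sites of Klf13 (29968 bp), Fam82b (29653 bp) and Sgms1 (29577 bp). Mean binding, explained in the next paragraphs, was 5.26, 5.23 and 4.96 at the inner sites and 5.94, 5.145 and 4.82 at the outer ones.

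Most of the sites lay downstream of the assigned start, on the side of the gene body. Downstream were 218 of 302 (72.2%, exact Clopper-Pearson 95% interval 66.8 to 77.2%, which covers counting error only, since sites are not replicates), and 84 were upstream. The share was 76.1% (293 of 385) in the genic class within 30 kb, 39.0% (114 of 292) in intergenic enhancer peaks beyond 30 kb and 53.4% over all common peaks. The genic class is a statement about position, so part of this is set by the class itself. For the upstream sites the assigned gene cannot be the gene that makes the site genic, unless it has another start.

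Sites of this kind were mostly single. Another common peak lay within 50 kb of 94 of the 302, within 10 kb of 42 and within 1 kb of 8. Of the gene IDs, 235 hold 1 site and 31 hold 2, and Lpp, a LIM-domain protein of cell adhesions, holds 5. The assigned gene also had a common peak within 30 kb of its start for 37 of the sites.

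RevErb binding is given as log2 tags per 10000000 in a window of 157 bp, with 1 added inside the logarithm, and mean binding is the mean of the RevErbalpha and the RevErbbeta value. Mean binding ran from 3.93 to 8.86 with a median of 5.55 and quartiles of 5.10 and 6.20. The median was 5.55 for genic peaks within 30 kb, 5.61 for intergenic peaks beyond 30 kb and 5.54 over all common peaks, so these distant genic sites stood at the level of the others. BirA had a median of 1.12 at the sites, and 294 of 302 had every RevErb run above BirA. The sites were called as peaks of both proteins, so a level above the background was required of them. Distance and binding were close to unrelated across the 302 sites (Spearman's rho -0.10, given as a description, since all sites share the same libraries).

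**Figure D1:**
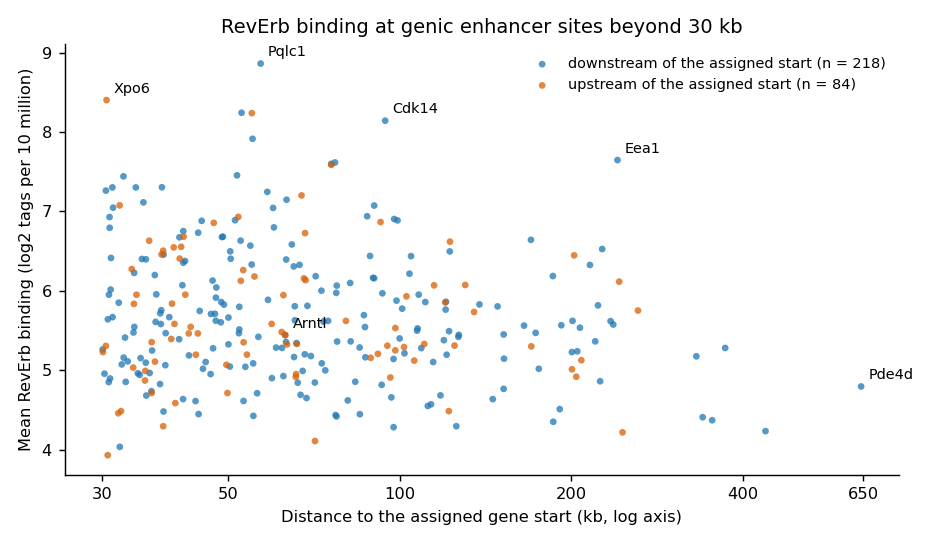
Mean RevErb binding (log2 tags per 10000000) of each of the 302 sites against the distance to the assigned gene start (kb, log axis), with 218 downstream and 84 upstream sites in separate colours. The strongest sites, Pqlc1 at 8.86 and Xpo6 at 8.40, lie under 100 kb, Eea1 reaches 7.65 at 240927 bp, and sites of either side cover the same range of binding.

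RevErbbeta values were above RevErbalpha values at 203 of 302 sites, by a median of 0.285. This size rests on single runs: it was 0.04 without RevErbalpha run 1, 0.02 without RevErbbeta run 2, 0.60 without RevErbbeta run 3 and 0.905 with only the 3 deepest runs. The run medians at the sites were 5.13, 5.94 and 5.91 for RevErbalpha and 5.605, 6.42 and 5.30 for RevErbbeta. A median site held 17.9 tags in RevErbalpha run 1 but 4.12 and 3.54 in runs 2 and 3, and 17.9, 41.4 and 3.00 in the RevErbbeta runs. Across the 302 sites the averaged RevErbalpha and RevErbbeta values had a Spearman's rho of 0.65, against 0.20 to 0.63 between single runs.

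The strongest site was assigned to Pqlc1, a membrane protein with PQ-loop repeats, and lies on chromosome 18 from 80509911 to 80510067, 56944 bp downstream. Its RevErbalpha runs read 9.04, 9.65 and 9.31, its RevErbbeta runs 8.11, 9.45 and 7.61, and BirA 1.81. All 6 runs were at least 5 log2 units above BirA. Xpo6, the nuclear export receptor for actin, followed on chromosome 7 from 133374392 to 133374548, 30548 bp upstream, with 7.95, 8.14 and 8.08 for RevErbalpha and 8.59, 9.11 and 8.54 for RevErbbeta. There the RevErbbeta runs lay above all RevErbalpha runs, as they did at Col15a1, which encodes a basement membrane collagen, with 7.79, 7.81 and 7.58 against 8.61, 9.20 and 8.47, and at Eea1, with 6.14, 7.85 and 7.59 against 8.25, 8.02 and 8.03. Zswim6, a zinc finger protein, read 7.88, 7.93 and 8.42 for RevErbalpha and 8.10, 8.88 and 8.22 for RevErbbeta, and its runs overlapped. The other strongly bound sites were at Cdk14, a cyclin-dependent kinase (mean binding 8.14), P4ha2, a prolyl hydroxylase of collagen (7.92), Eea1, an early endosome tether (7.65), Dhx30, an RNA helicase (7.62), Dennd1a, an exchange factor for Rab35 (7.60), and Lpin2, a phosphatidate phosphatase (7.59). At all 10 sites every RevErb run was above BirA.

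**Figure D2:**
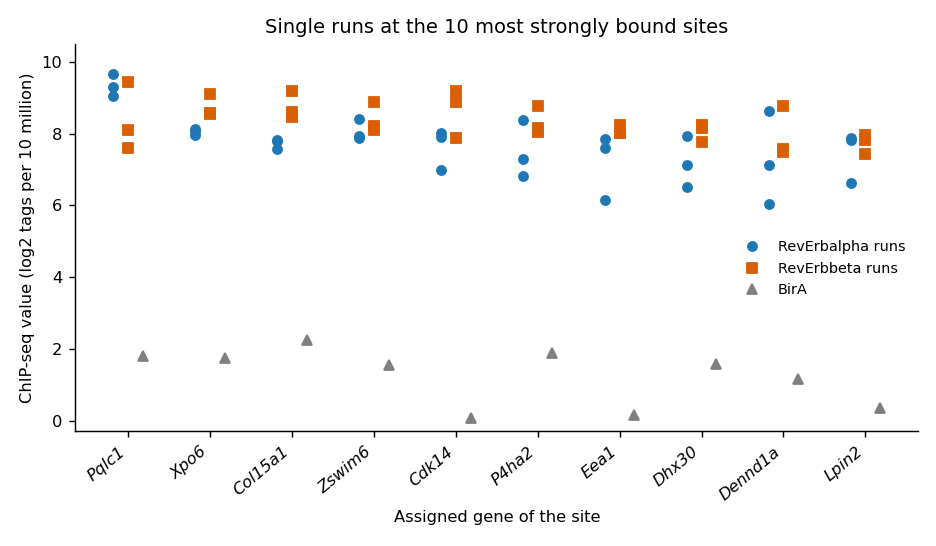
ChIP-seq values of single runs (log2 tags per 10000000) at the 10 most strongly bound sites, named by assigned gene, with 3 RevErbalpha runs, 3 RevErbbeta runs and 1 BirA value each. Every RevErb run is above BirA, which reaches 2.24 at Col15a1, and the runs of the RevErbs overlap at some sites and lie apart at Xpo6, Col15a1 and Eea1.

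Capped nascent RNA at the sites was compared between control RAW cells and cells with tagged RevErbalpha, which asks whether added RevErbalpha goes with less enhancer transcription. Values are log2 tags per 10000000 in 500 bp, again with 1 added, so differences of low values are understated. The median level was 5.465 in control cells and 4.925 in tagged cells, and the median difference was -0.31. It was -0.35 for genic peaks within 30 kb, -0.205 for intergenic peaks beyond 30 kb and -0.23 over all common peaks. The control level itself was lower at genic sites, 5.61 within 30 kb, than at intergenic sites beyond 30 kb, 6.225.

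At 76 of 302 sites (25.2%, exact interval 20.4 to 30.5%) the tagged library was lower by 1 or more, against a background of 20.0% of all common peaks. The share was 26.2% (101 of 385) for genic peaks within 30 kb and 14.4% (42 of 292) for intergenic peaks beyond 30 kb. The share in these sites thus lay near that of the closer genic peaks, and the difference between the classes was not tested. It was higher by 1 or more at 18 sites (5.96%), against a background of 4.92%. Values below 0 were found at 192 sites (63.6%), against 62.6% of all common peaks.

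These counts move with how low values are treated. The median site held 80.8 tags in the control library and 21.3 in the tagged one, and 63 sites held under 3 tags in the tagged library against 20 in the control. With 10 in place of 1 inside the logarithm, 41 sites (13.6%) were lower by 1 or more against a background of 11.7%, and 12 were higher against 2.2%. A floor of 3 tags was also set, with no amount added inside the logarithm. With the floor on the tagged library only, 63 were lower against a background of 17.6%. With the floor on the control library only, 21 were higher against 4.92%. Among the 76 lower sites, 62 had a 95% interval of counting error wholly below 0, and among the 18 higher sites 14 had one wholly above 0. Tags were rounded down for these intervals, which may set them too low where the tagged library held few tags. Of the 151 sites at or above the median level, 22 were lower by 1 or more, 6 were higher, and the median difference was -0.18.

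**Figure D3:**
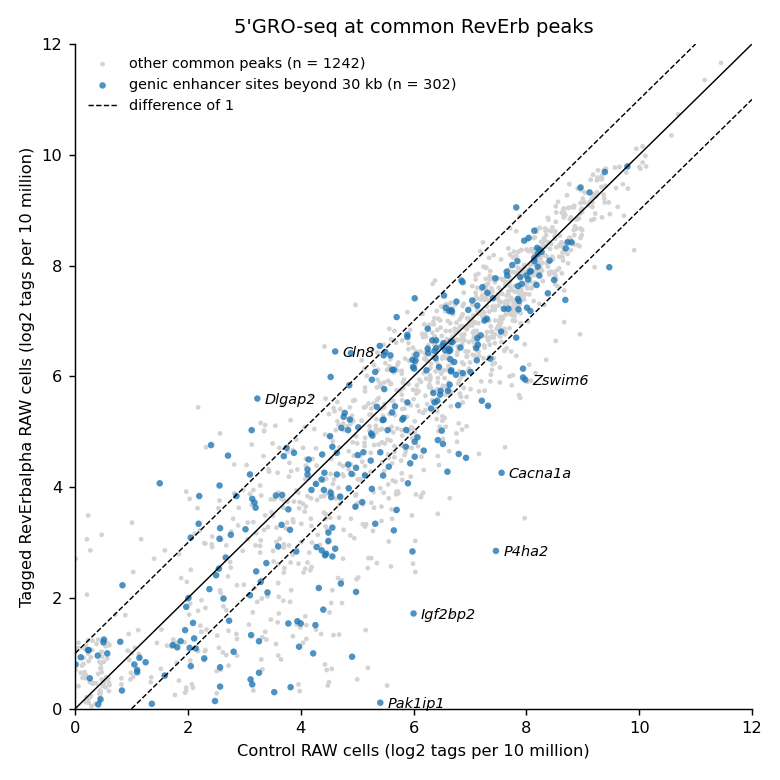
5'GRO-seq values (log2 tags per 10000000 in 500 bp) in tagged RevErbalpha cells against control RAW cells, 1 library each, for the 302 sites and the other 1242 common peaks, with the line of equal values and lines at a difference of 1. P4ha2 (7.46 and 2.85), Igf2bp2 (6.0 and 1.72) and Cacna1a (7.56 and 4.26) lie well under the lower line, and Cln8 and Dlgap2 lie over the upper one.

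The site of P4ha2 on chromosome 11 from 53969465 to 53969621, 55117 bp downstream, had 7.46 in control cells and 2.85 in tagged cells, or about 328 and 4.50 tags. The difference of -4.61 had a counting interval of -6.87 to -3.61 and was -3.51 with 10 inside the logarithm. This was 1 of the most strongly bound sites, with RevErbalpha runs of 6.82, 8.39 and 7.30 and RevErbbeta runs of 8.06, 8.77 and 8.15. A further P4ha2 site, 6019 bp away at 49098 bp, had 5.70 and 3.59, a difference of -2.11 (interval -3.45 to -1.16). Both sites of this gene were thus lower in the tagged library.

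Among the better transcribed sites, the lowest differences were at genes of varied roles. Cacna1a, a subunit of a voltage-gated calcium channel, had 7.56 in control and 4.26 in tagged cells at its site on chromosome 8 from 87025630 to 87025786, a difference of -3.30 (interval -4.31 to -2.59). At 1700011L22Rik the values were 6.93 and 4.53, a difference of -2.40. Mical2, a monooxygenase that acts on actin filaments, had 6.60 and 4.28, a difference of -2.32 (interval -3.35 to -1.60). All 3 were far outside counting error and lay 59884 to 104589 bp downstream.

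Tbxas1, thromboxane synthase, had 6.80 and 4.60 at a site 31099 bp downstream, a difference of -2.20. Zswim6 had 7.98 and 5.94, or about 470 and 43.7 tags, at its strongly bound upstream site, a difference of -2.04 (interval -2.57 to -1.63). D3Ertd254e, Hlcs, which encodes the enzyme that joins biotin to carboxylases, and Cradd, an adaptor with a death domain, had differences of -1.96, -1.85 and -1.80 from control values of 7.94, 7.32 and 7.94. Of these 8 sites, Zswim6 and D3Ertd254e had mean binding above 7, as did Mical2 at 7.045, while Hlcs at 4.95 was weakly bound.

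Some larger differences rest on few tags, and the genes in this paragraph were chosen after their values were seen. Igf2bp2, an RNA-binding protein that regulates insulin-like growth factor mRNA, had 6.0 and 1.72 at a site 41959 bp downstream and 3.82 and 0.39 at a site 12958 bp farther on. The first difference, -4.28, has an upper counting limit of -2.99 with about 1.66 tags in the tagged library. The other site held under 1 tag there, with an upper counting limit of the difference of -1.22. Pak1ip1, a nucleolar protein and inhibitor of the kinase PAK1, had 5.41 and 0.11 at a site 32212 bp upstream with mean binding of 7.08 and an upper counting limit of -2.98. Kdm2b, a histone demethylase, had 4.91 and 0.94, with a limit of -2.45. Prex1, an exchange factor for Rac, had 5.98 and 2.84, a difference of -3.14 (interval -5.39 to -2.09).

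Higher values in the tagged library were seen at fewer sites. Cln8, an endoplasmic reticulum cargo receptor, had 4.61 in control and 6.45 in tagged cells at a site 245891 bp upstream, a difference of 1.84 (interval 1.31 to 2.49). Tlr2, a receptor for bacterial lipoproteins, had 4.89 and 6.42, a difference of 1.53 (interval 1.02 to 2.13). ORF63 had 6.02 and 7.41, and Bcl2, an inhibitor of apoptosis, had 5.70 and 7.07, differences of 1.39 and 1.37. Their mean binding was 4.22, 5.20, 5.16 and 5.165, below the median of the sites. At the Cln8 site RevErbbeta run 3 read 0.54, under BirA at 0.80. Dlgap2, a synaptic scaffold gene whose site lies 372297 bp from its start, had 3.23 and 5.60 (interval of the difference 1.64 to 3.53). The sites of Cln8 and Dlgap2 lie near each other on chromosome 8, from 14642567 to 14642723 and from 14468094 to 14468250. Which gene the Cln8 site lies in was not checked.

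The sites were also ordered by binding and split into groups of 101, 101 and 100. In the 101 most weakly bound sites 19 (18.8%) were lower by 1 or more, in the middle 101 also 19, and in the 100 most strongly bound 38 (38.0%). The background was 20.0% of all common peaks. In the same order the median differences were -0.21, -0.18 and -0.665. The strongest group thus held the highest count, with a control level (5.29) below that of the weakest group (5.65), and the difference between the groups was not tested. Spearman's rho between binding and difference was -0.18 over the 302 sites and -0.24 over all common peaks, given as a description, because the sites share the same pair of libraries. Of the 10 most strongly bound sites 5 were lower by 1 or more: Pqlc1 (5.32 and 3.34), Col15a1 (3.97 and 1.12), Zswim6, Cdk14 (3.29 and 2.29) and P4ha2. The counting interval at Cdk14, -4.79 to 0.46, included 0. Xpo6 and Lpin2 held few tags in either library, with 2.00 and 0.54 tags and 1.46 and 0.19 tags, and no change could be read there.

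By distance, 30 of 116 sites (25.9%) at 30 to 50 kb were lower by 1 or more, beside a background of 20.0% of all common peaks. So were 34 of 113 (30.1%) at 50 to 100 kb and 12 of 73 (16.4%) beyond 100 kb. In the same order the median differences were -0.34, -0.45 and -0.06, and whether the groups differ was not tested. Downstream sites (median -0.295, 59 of 218 lower) and upstream sites (median -0.32, 17 of 84 lower) had similar medians.

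Genes with several sites allow their sites to be set side by side. Of the 31 gene IDs with 2 sites, 20 had both below 0, 4 had both above 0 and 7 were mixed or at 0. Sites of a gene that stand under different gene IDs are not paired in these counts. Elmo1, described below with a site on either side of 0, is therefore not among them. Both sites were lower by 1 or more at 2 genes, P4ha2 and Igf2bp2, 1 site at 12 genes and neither at 17. Taken singly, 63.6% of the 302 sites were below 0 and 25.2% were lower by 1 or more. The shares over all common peaks were 62.6% and 20.0%. Whether sites of one gene go together beyond these shares was not tested. Dhx30 had sites 542 bp apart with differences of -0.46 and -1.31, and their 5'GRO-seq windows are next to each other. Fam78b, whose values are named here after they were seen, had 8.49 and 7.74 at one site and 4.26 and 1.51 at another 5987 bp away. Cd180, a Toll-like receptor relative on B cells and myeloid cells, had sites 148651 bp apart, with 3.88 and 4.62 at one and 0.57 and 1.0 at the other, where both libraries held under 1 tag.

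**Figure D4:**
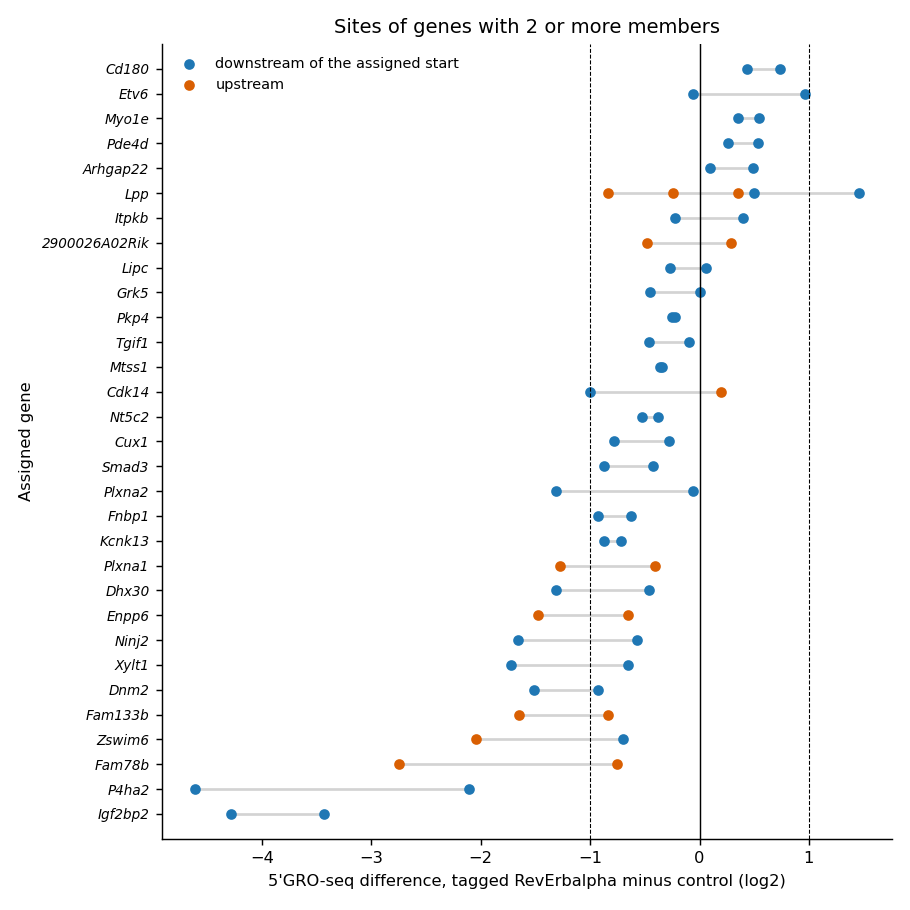
5'GRO-seq difference (tagged RevErbalpha minus control, log2) at each site of 31 of the 32 gene IDs with 2 or more sites, coloured by side of the assigned start, with dashed lines at -1 and 1. At P4ha2 and Igf2bp2 both sites lie left of -1, and the 5 sites of Lpp run from -0.84 to 1.46.

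Lpp, with its 5 sites between 24517865 and 24891833 on chromosome 16, went both ways. Its sites were assigned to 2 different starts of the gene, so 3 of them count as upstream although they may lie within a longer transcript. In order of position the control and tagged values were 4.53 and 5.99, 5.45 and 5.21, 5.87 and 5.03, 4.72 and 5.07, and 5.62 and 6.12. The differences were 1.46, -0.24, -0.84, 0.35 and 0.50. Mean binding was highest at the last 2 of these, 6.87 and 6.64, and lowest at the second, 4.49, where RevErbbeta run 3 read only 0.97. The gene value of Lpp was 12.52 and 12.58 in WT and 12.55 and 12.37 in the runs labelled DKO.

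Gene lists of macrophage functions were described by counts, beside the 21.9% of all gene IDs that hold a site. Genes of the lists were counted by gene ID. Regulators of small GTPases and the cytoskeleton held the most. Of their 33 gene IDs with a common peak, 18 had at least 1 distant genic site, and together they had 25. Of these 25, 5 were lower and 2 were higher by 1 or more, beside backgrounds of 20.0% and 4.92%, so the count of lower sites was at the background share, and the median difference was -0.02. Rab20, an endosomal GTPase, had 4.22 and 1.0, Rapgef6 had 3.26 and 0.65, and Srgap2, a GTPase activator for Rac, had 2.48 and 0.14, each with under 1 tag in the tagged library, and at Srgap2 the counting interval included 0. Elmo1, which helps activate Rac during engulfment, had sites on either side of 0, at 2.20 and 3.84 (1.64) and at 2.57 and 0.75 (-1.82, with a counting interval that included 0). Rab8b, a GTPase of membrane transport, had a strongly bound site (7.44) with 7.36 and 6.32, a difference of -1.04 (interval -1.48 to -0.64).

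The other lists held 0 to 6 sites each, beside the background of 20.0% of all common peaks that were lower by 1 or more. Phagocytosis, adhesion and surface receptor genes had sites at 4 of 11 genes, Plxna1, Cd180, Itgb5 and Axl, and 1 of their 6 sites was lower, that of Plxna1 with 2.05 and 0.77, or 5.88 and 0.51 tags. Its counting interval reached above 0, and no change could be read there. Pattern recognition had 2 of 12 genes, Tlr2 and Irak3, an inhibitor of Toll-like receptor signalling (6.67 and 6.11). Cytokines and their receptors had 1 of 12, Tgfbr1 (7.85 and 7.63), and kinase and calcium signalling had 4 of 24, with 1 of 6 sites lower, that of Pik3r1 with 1.36 and 0.09. The Pik3r1 site held 2.93 and 0.047 tags, and no change could be read there either. Lipid handling had 2 of 13: Pla2g4a, which releases arachidonic acid, had 5.65 and 3.22 (interval -4.05 to -1.39), and Abca1, the cholesterol exporter, had 6.40 and 6.65. Extracellular proteases and their inhibitors had 0 of 12, and the 1 housekeeping gene with a common peak had none here.

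Transcription factors and coregulators also held sites. Macrophage transcription factors had sites at 3 of 21 genes: Runx1 with 6.47 and 5.67, Etv6 with 6.39 and 6.33 and with 3.75 and 4.71, and Fli1 with 3.13 and 5.03 (interval 0.99 to 3.10). None of these 4 was lower by 1 or more and Fli1 was higher. Coregulators had 4 of 11 genes and 2 of 5 sites lower. Over all common peaks 20.0% were lower and 4.92% higher by 1 or more, and counts this small were not tested against these shares. Chd7, a chromatin remodeller, had 5.26 and 3.97 (interval -2.54 to -0.45).

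GRO-seq at the sites compared macrophages of both genotypes, which asks how transcription there differs in the library labelled DKO. Loss of the RevErbs in that library was not checked. The median was 3.51 in WT and 3.48 in the library labelled DKO, and the median difference was 0.02, against 0.03 over all common peaks. It was higher by 1 or more at 9 of 302 sites (2.98%), against a background of 3.37%, and lower by 1 or more at 7 (2.32%), against 2.2%. With 10 inside the logarithm 0 sites passed in either direction, against backgrounds of 0.194% and 0.0%. Within 0.5 of 0 lay 223 of the 302. The 100 most strongly bound sites had a median of 0.16, the middle 101 of -0.03 and the weakest 101 of -0.06.

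Several of the sites that were higher had low levels. Ccnjl, a cyclin-like gene, went from 0.12 to 2.12 and Zfp36l1, an mRNA decay factor, from 0.825 to 2.475. Pdcd1lg2, which encodes the checkpoint ligand PD-L2, went from 1.965 to 3.045 at a strongly bound site (mean binding 7.455). At these 3 sites 5'GRO-seq was lower in tagged cells, with 4.56 and 2.75, 3.11 and 0.53, and 5.46 and 4.21. Across all sites, 5 were both higher by 1 or more in GRO-seq of the library labelled DKO and lower by 1 or more in 5'GRO-seq of tagged cells (background 1.17% of all common peaks), and the other 2 were assigned to Capza2 and Parva. Spearman's rho between the differences was 0.02 over the 302 sites, given as a description. Of these genes Zfp36l1, Capza2 and Parva were chosen after their values were seen.

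Among better transcribed sites the highest difference was at Grk5, a kinase of G protein-coupled receptors, with 3.585 in WT and 4.63 in the library labelled DKO. A Grk5 site 6068 bp away had 3.575 and 4.015. Eea1 had 4.025 and 4.86, Shisa9 3.215 and 3.96, Enpp6 3.96 and 4.615, Dennd1a 3.755 and 4.395, and Egln3, an oxygen-sensing prolyl hydroxylase, 3.59 and 4.22. Eea1 and Dennd1a were also among the 10 most strongly bound sites. Lower were Cdk14 (4.215 and 3.305), Nsmce2, a SUMO ligase (4.16 and 3.305), and Itpkb, an inositol phosphate kinase (4.175 and 3.41). Of the 7 sites lower by 1 or more, 6 lay beyond 100 kb, with Commd9 lowest at 3.20 and 1.71. Beyond 100 kb lay 73 of the 302 sites, and 3 of these 73 were higher by 1 or more. Over all common peaks 2.2% were lower and 3.37% were higher by 1 or more. With 10 inside the logarithm 0 of the 302 sites were lower by 1 or more. Whether the lower sites differ by distance was not tested.

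GRO-seq and 5'GRO-seq values at the sites had a Spearman's rho of 0.29 over the 218 downstream sites and 0.67 over the 84 upstream sites. For the 292 intergenic peaks beyond 30 kb it was also 0.67. These are descriptions over sites that share libraries, from different cells (bone marrow derived and RAW).

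At the assigned genes, 4 of 267 were higher in the library labelled DKO by 0.5 or more with no overlap of runs (background 1.97% of 1220 gene IDs), and 2 were lower (background 0.738%). The median gene difference was 0.005, against 0.035 over all genes of the table, and 227 of 267 lay within 0.25 of 0. Runs of one genotype differed with an SD of 0.218 in WT and 0.207 in the library labelled DKO over these genes. These SDs are of differences between single runs, while the gene difference is between means of 2 runs, so they are not directly comparable.

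Of the 7 listed clock genes with a common peak, 2 held a distant genic site, Arntl and Npas2, and both were among the 4 higher genes, with 2 genes of surface proteins. Arntl and Npas2 each hold 1 distant genic site but 3 and 2 common peaks in all. Their gene values thus cannot be tied to the distant genic site alone. Arntl had 10.17 and 10.31 in WT and 11.37 and 11.25 in the runs labelled DKO, a difference of 1.07. Npas2, a partner of BMAL1 that can act in place of CLOCK, had 9.47 and 9.30 against 10.38 and 10.34, a difference of 0.975. Clec1b, the platelet and myeloid receptor CLEC-2, had 3.71 and 3.21 against 4.48 and 4.74, the largest difference here at 1.15, from a low level. Pdcd1lg2 had 5.75 and 5.35 against 5.80 and 6.56, and its 0.63 depends on a single run, being 0.25 without DKO run 2 and 1.01 without DKO run 1. The runs of the genotypes lay far apart for Arntl and Npas2 and nearly met for Pdcd1lg2.

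Lower were Ccnjl, with 5.02 and 4.63 against 3.63 and 4.55, and Cntn4, a neuronal contactin, with 6.33 and 6.82 against 6.11 and 5.66. The Ccnjl difference of -0.735 was -0.275 without DKO run 1 and -1.195 without DKO run 2. The Cntn4 difference of -0.69 ran from -0.935 to -0.445 when single runs were left out. Ccnjl was therefore lower over the gene while its site 41013 bp downstream was higher. Igf2bp2, with its pair of strongly lower 5'GRO-seq sites, had 10.52 and 10.41 against 10.91 and 10.98 (0.48). P4ha2 had 7.72 and 8.18 against 8.32 and 8.26 (0.34), and this difference ran from 0.11 to 0.57 when single runs were left out. Ninj2, an adhesion protein named after its values were seen, had 9.76 and 9.72 against 10.00 and 10.19. Plxna1, a semaphorin receptor, had 11.29 and 11.23 against 11.53 and 11.70. These 4 genes were higher in both runs labelled DKO but under the size of 0.5. Each holds 2 distant genic sites, while common peaks in all were 3 at Igf2bp2, 2 at P4ha2, 3 at Ninj2 and 4 at Plxna1.

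**Figure D5:**
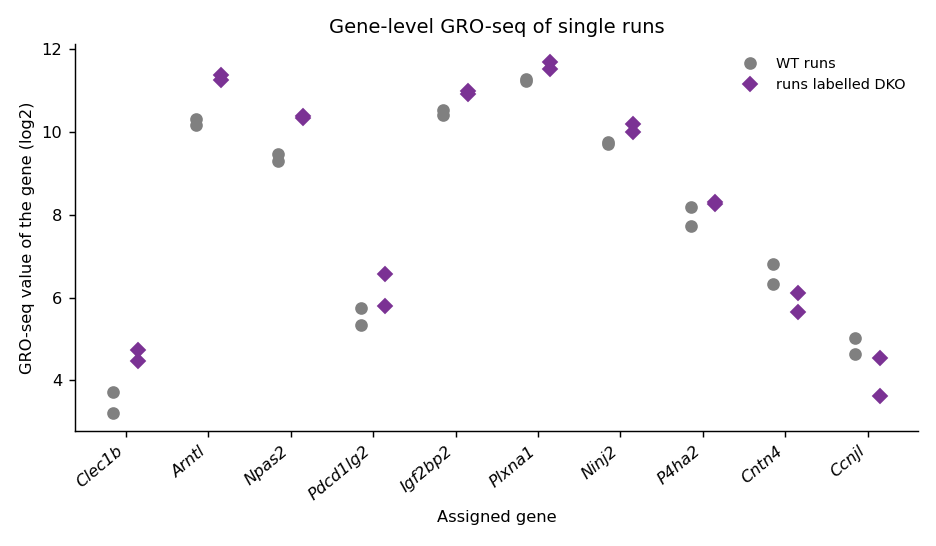
Gene-level GRO-seq values (log2) of single runs, 2 WT and 2 labelled DKO, for 10 genes assigned to distant genic sites. The runs do not overlap for any gene shown. The means of the genotypes are about 1 apart for Arntl, Npas2 and Clec1b, and single runs come close together for Pdcd1lg2, Ccnjl and P4ha2.

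Counted at any size, the runs labelled DKO lay above the WT runs at 42 genes (15.7%, background 18.4%) and below them at 40 (14.98%, background 10.0%). Among genes with a site beyond 100 kb, 1 of 65 was above and 14 were below, with a median difference of -0.045. Genic peaks within 30 kb had 76 genes above and 23 below of 353. The sizes are small, and whether these counts differ was not tested.

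The sites of the 4 higher genes read differently in RAW cells. The Arntl site, on chromosome 7 from 120287984 to 120288140 and 62917 bp upstream, had RevErbalpha runs of 4.43, 6.44 and 5.93, RevErbbeta runs of 4.83, 6.21 and 4.81, and BirA of 0.83. Its 5'GRO-seq values were 4.0 in control and 1.54 in tagged cells, a difference of -2.46 with about 1.38 tags in the tagged library (interval -8.79 to -0.84), and -1.07 with 10 inside the logarithm. The Npas2 site, on chromosome 1 from 39313468 to 39313624 and 62429 bp downstream, had 6.69 and 6.62 in 5'GRO-seq, with a counting interval of the difference of -0.50 to 0.32. At Clec1b the site 37125 bp downstream had 5.47 and 6.38, and at Pdcd1lg2 the site 51755 bp downstream had 5.46 and 4.21 (interval -2.38 to -0.48). Tagged cells were thus lower at the sites of Arntl and Pdcd1lg2, higher at that of Clec1b, and without a difference beyond counting error at that of Npas2.

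The promoters of the 3 genes with the largest gene-level differences are shown to place the RevErb motif beside these values. Each runs from 250 bases before to 50 bases after a start, on the gene's strand, from RefSeq with build GRCm38.p6, which is not the build of the sites. Capitals mark TAGGTCA preceded directly by AAN, where N is any base, and the search covered both strands.
Arntl, the second listed start: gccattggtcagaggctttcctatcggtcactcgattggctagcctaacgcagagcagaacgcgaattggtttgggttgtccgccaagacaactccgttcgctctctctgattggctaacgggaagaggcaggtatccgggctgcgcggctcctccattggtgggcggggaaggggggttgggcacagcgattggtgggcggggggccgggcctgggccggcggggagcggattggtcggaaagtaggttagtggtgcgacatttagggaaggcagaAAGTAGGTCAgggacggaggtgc
Npas2: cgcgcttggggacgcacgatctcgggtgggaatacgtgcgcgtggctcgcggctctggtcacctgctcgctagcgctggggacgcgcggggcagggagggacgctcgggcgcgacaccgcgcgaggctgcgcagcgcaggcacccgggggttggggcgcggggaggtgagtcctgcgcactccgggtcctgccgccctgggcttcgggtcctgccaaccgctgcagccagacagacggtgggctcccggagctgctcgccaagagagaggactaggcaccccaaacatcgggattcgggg
Clec1b: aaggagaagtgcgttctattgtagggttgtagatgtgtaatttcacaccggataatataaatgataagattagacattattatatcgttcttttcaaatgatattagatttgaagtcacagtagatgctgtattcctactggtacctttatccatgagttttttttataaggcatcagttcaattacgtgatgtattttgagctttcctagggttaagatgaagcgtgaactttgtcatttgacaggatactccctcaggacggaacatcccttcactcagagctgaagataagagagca
The Arntl window holds AAGTAGGTCA, which begins at base 278 of the 300 shown, and the windows of Npas2 and Clec1b hold no match to it or to AGGTCA. This longer motif was found in 0.219% of 32851 promoters of the same length and in 1 of 286 promoters (0.35%) of 213 genes with a distant genic site, the Arntl promoter shown. The shorter AGGTCA, which the longer motif contains, was found in 16.3% of all promoters and in 14.7% of those 286. The window of the other listed Arntl start, which overlaps the one shown, holds no match to either motif. A match is a description of the letters and not a measured binding site.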

How the data were processed

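The authors deposited a summary table and 3 lists of peaks on build mm9. The submitters' processing notes name Bowtie 0.12.7 and HOMER. How peaks were called is not given in the sources used here. At peaks, values are log2 tags per 10000000 in 157 bp (ChIP-seq) or 500 bp (5'GRO-seq), per the file headers, and the deposited log2 GRO-seq values have no stated window at peaks. 5'GRO-seq tags were estimated as 2 to the deposited value minus 1, times the library total in the header, divided by 10000000. Counting intervals (exact, 95%) used these tags rounded down to whole numbers and the depth-scaled ratio without the added 1. The differences printed beside them include the added 1. Rounding down takes relatively more from low tag numbers, so intervals with few tags in the tagged library may lie too low. Low values are not on whole tags, so no count test was run.

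Log2 values of runs were averaged and treated as 1 sample. Members and lists were chosen with earlier results of these data known. Sites counted differ by 1 or more, and genes by 0.5 or more with runs apart. Named are the 10 most strongly bound sites, the 8 lowest and 4 highest in 5'GRO-seq and the 6 highest and 4 lowest in GRO-seq at or above the median level, sites of genes with 3 or more, the farthest, those beside the limit, counted genes, and listed genes (at most 4 by binding, with the 2 largest differences). Symbols are the authors' names, replaced from RefSeq GRCm38.p6 where a name was missing or read as a date. A RefSeq symbol was matched for 298 of 302 sites, and 5 sites have IDs of non-coding transcripts. The RefSeq symbols of Pqlc1, ORF63 and D3Ertd254e are Slc66a2, Map3k7cl and Zfp267. The sign of the distance was checked on 239 steps between peaks of one start, of which 238 had the direction that the strand gives. The counting rules were tested on simulated data. The values of 2 sites' genes that the rule names are not reported here. Values of H3K9ac, H3K4me1 and PU.1 libraries were not analysed here. Python 3.11.15, numpy 2.4.6, pandas 2.3.3, scipy 1.17.1 and matplotlib 3.10.9 were used.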

Additional observations from a re-analysis of the deposited data

How the results depend on the processing

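The GRO-seq median at sites, 0.022, turned to -0.01 above the lower quartile of level and to -0.008 after centring on the median of all common peaks, so it has no direction to read. Sites lower by 1 or more in 5'GRO-seq (76) became 41 with 10 added in place of 1, 38 above the lower quartile of level and 46 beyond 50 kb. Higher sites (18) became 9 above that quartile, 11 beyond 50 kb and 34 after centring on the median of all common peaks, which shifts every difference by 0.23. The median of -0.31 became -0.194 with 10 added and -0.08 after centring. In GRO-seq, 7 lower and 9 higher sites became 0 and 0 with 10 added and 4 and 4 above the quartile. Higher genes (4) were 6 to 9 with a run left out, 2 above the quartile and 42 at any size, and lower genes (2) were 3 to 8, 0, 40 and, beyond 50 kb, 1. More genes pass with a run left out because fewer runs must lie apart. The RevErbbeta minus RevErbalpha median of 0.285 was 0.023 to 0.596 with a run left out and 0.905 with deep runs only. The other causes were not tested. With 10 added, 16 named 5'GRO-seq differences and 7 named GRO-seq differences at sites moved by over 0.5, and none of them changed sign. The floor of 3 tags was added after the data had been seen. Depth limits the 63 sites with under 3 tags in the tagged library. No paired analysis was possible because each group is 1 sample and the runs carry no shared number across conditions.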
